A study of Mus musculus with 15 samples.

Results

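Transforming growth factor beta (TGF-beta) and activin signalling was followed through 9 genes in alveolar macrophages, the resident phagocytes of the lung airspaces, of mice with and without a working Cybb gene. The 9 genes were taken by symbol from the deposited count table, 1 row per Ensembl gene, out of 40510 genes: Fstl1, Thbs1, Inhba, Tgfb1, Tgfbr1, Tgfbr2, Acvr1b, Smad3 and Smad7. All 9 passed the filter on low counts and were tested among 13284 genes. Fstl1 and Thbs1 were chosen by their measured levels, much higher in 12-week knockout cells, so their values in every comparison that uses 12-week cells are given as a description without a test, and both are left out of the counts of pathway genes. The only comparison of them that the choice did not use is the genotype comparison at 4 weeks. The other genes were taken for their place in the pathway.

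Cybb encodes the catalytic subunit (NOX2) of the phagocyte NADPH oxidase, and its loss is a model of chronic granulomatous disease. The mice were naive and C57BL/6, wild type (WT) or Cybb knockout (KO), and the cells were obtained by bronchoalveolar lavage and sorted as CD45+ Ly6G- SiglecF+ CD11c+. There were 5 groups of 3 libraries: WT and KO CD11b-low cells at 4 weeks, WT and KO CD11b-low cells at 12 weeks, and KO CD11b-high cells at 12 weeks. No WT CD11b-high group was among the samples, so CD11b-high KO cells could be set only against CD11b-low cells. The labels do not say which part of Cybb was removed. Each replicate pooled 2 to 3 mice of a group to reach about 50000 cells, and p-values measure the spread between such pools. In these bulk libraries, more cells of a type and more RNA of a gene per cell cannot be told apart.

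TGF-beta is secreted in a latent complex and has to be released before it can bind its receptors, and thrombospondin 1 (Thbs1) is one of the proteins known to release it. Active TGF-beta binds the type II receptor Tgfbr2, which recruits the type I receptor Tgfbr1, while activin A, a dimer of the Inhba product, signals through the type I receptor Acvr1b. Both type I receptors phosphorylate Smad2 and Smad3, and Smad7 is a feedback inhibitor induced by the pathway. Fstl1 is a secreted glycoprotein of the follistatin family that modulates signalling by members of the TGF-beta superfamily. Autocrine TGF-beta is known to maintain alveolar macrophages.

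The libraries held 22856331 to 36458893 counts, with 15889 to 17973 genes detected. Levels are CPM, counts scaled to library size by the TMM method, and tests are two-sided quasi-likelihood tests in edgeR, called at a Benjamini-Hochberg adjusted p under 0.05 over all tested genes. Cybb stood at 129 to 221 CPM in KO libraries and at 898 to 2318 CPM in WT libraries. All 12 alveolar macrophage markers had counts in every library, and Ly6g had none in any. Their levels were not all alike at 12 weeks. Against WT cells, 1 was called lower in CD11b-low KO cells (3.1% of all genes called), Ear2. In CD11b-high KO cells 2 were lower, Ear2 and Cidec, and 1 was higher, Itgax (14.8% called). Ear2 had means of 4062 CPM in WT, 1741 in CD11b-low KO and 928 in CD11b-high KO cells. Markers of other cells moved with the groups at 12 weeks. The summed CPM of 10 neutrophil markers was 371 to 439 in CD11b-high KO libraries, 43.8 to 149 in CD11b-low KO libraries and 33.4 to 55.2 in WT libraries, and that of 7 T cell markers was 27.2 to 84.6, 43.6 to 106 and 1.45 to 5.22 in the same order. For 10 platelet markers the sum was 148 to 290, 186 to 325 and 120 to 142 CPM in that order. At 4 weeks it was 16.9 to 24.2 in KO and 8.86 to 22.6 in WT libraries. Only 2 of the 10 passed the filter, Clec1b and Pf4. At 12 weeks Clec1b had means of 164, 211 and 123 CPM and Pf4 of 50.9, 22.0 and 7.71 CPM, in the same order. The part of these cells in the results was not tested. The fibroblast list summed to 245 to 259 CPM in CD11b-high KO and 64.9 to 187 in WT libraries at 12 weeks, almost entirely from Gsn. Col1a2 was at 0 in all libraries older than 4 weeks, but other members were not. Per kilobase of exon, Dcn stood at 0.0645 CPM in CD11b-high KO, 0 in CD11b-low KO and 0.00261 in WT cells at 12 weeks. Col1a1 stood at 0.0195, 0.0200 and 0.00598 in the same order. Replicate 1 of WT cells at 12 weeks stood apart, with the lowest mean correlation with its own group (0.944 over genes, against 0.965 or more elsewhere). Replicate 1 of CD11b-high KO cells was not set apart by this measure (0.965), but had far less Thbs1 and Smad3 than replicates 2 and 3. Its 8 monocyte markers summed to 144 CPM against 366 and 253 in its group, while these sums also ranged from 157 to 287 in CD11b-low KO cells and from 114 to 303 in WT cells at 12 weeks. The levels of the 9 genes that rest most on these libraries are given with and without them.

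Stretches just upstream of the start are shown for Fstl1 and for the ligand genes Inhba and Tgfb1, whose levels followed different patterns (RefSeq, GRCm38.p6, plus strand). The first is the activin ligand Inhba (chr13:16011601-16011850), with a TATAAA match in capitals. The second is Tgfb1 (chr7:25686752-25687001), with matches to GGGCGG or its reverse complement in capitals. The third is Fstl1 (chr16:37776805-37776872), the part of its window before the earliest annotated transcript start.
Inhba: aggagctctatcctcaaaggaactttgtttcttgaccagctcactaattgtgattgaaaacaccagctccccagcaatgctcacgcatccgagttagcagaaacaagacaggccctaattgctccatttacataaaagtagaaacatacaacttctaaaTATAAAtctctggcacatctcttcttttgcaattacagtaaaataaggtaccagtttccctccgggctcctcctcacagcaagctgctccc
Tgfb1: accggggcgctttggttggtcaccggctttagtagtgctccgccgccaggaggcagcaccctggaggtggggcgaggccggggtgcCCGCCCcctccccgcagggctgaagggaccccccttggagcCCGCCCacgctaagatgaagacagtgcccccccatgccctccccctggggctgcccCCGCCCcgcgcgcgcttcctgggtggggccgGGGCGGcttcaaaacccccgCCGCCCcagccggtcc
Fstl1: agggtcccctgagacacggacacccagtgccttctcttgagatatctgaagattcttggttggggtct
Motifs were searched on both strands in the 250 bases before each RefSeq start. Inhba held 1 TATAAA, beginning 91 bases before the start, as did 12.4% of 32851 such windows in the table, and its window had a GC content of 43.2%. Tgfb1 held 5 GGGCGG matches and no TATAAA, and Fstl1 held 2 GGGCGG matches, beginning 46 and 22 bases before its RefSeq start and beyond the stretch shown. At least 1 GGGCGG was found in 32.7% of windows, and the GC contents of these windows were 75.2% and 68%. No match overlapped another motif. The Inhba gene overlaps an opposite-strand pseudogene, B230303A05Rik, and an opposite-strand antisense gene, Gm48444, with 0 shared exonic bases. Whether these 2 genes reach the stretch shown was not tested. No match to CAGAC (42.2% of windows), TGANTCA (6.75%), TGACGTCA (1.55%), the NF-kappaB motif (1.41%) or GAGGAAGT (2.44%) was found in the 3 windows. Matched by symbol, 7 of the 9 genes had an entry in the promoter table, and Thbs1 and Smad7 had none.

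Fstl1 (ENSMUSG00000022816, 16:37776873-37836514, plus strand, GRCm38, GENCODE M21) was low in both WT groups, and at 4 weeks its KO mean was 3.69 times the WT mean, a difference that edgeR did not call. Its levels were 3.65, 4.08 and 3.84 CPM in the 3 WT libraries at 4 weeks and 11.1, 24.9 and 6.67 CPM in the 3 KO libraries. Every KO library lay above every WT library, as was so in either direction for 8.63% of all genes. The KO mean was 8.87 CPM without replicate 2. The difference was 1.88 on the log2 scale (SE 0.43, 95% interval 0.98 to 2.79) with an unadjusted p of 3.92e-04 in edgeR, which did not pass after adjustment (adjusted p = 0.254) in a comparison where 0.0979% of all tested genes were called. It passed in DESeq2 (adjusted p = 0.0137) and in edgeR without the low-count filter (3.22e-07). In edgeR it did not pass with RLE scaling, with a replicate block or with a fit of only these groups. Nor did it pass when any library of these groups was left out. Thbs1 stood at 0.0528, 0.172 and 0.242 CPM in the WT and 0.0526, 0.113 and 0.0478 CPM in the KO libraries of that age, from 2 to 8 counts each, with a log2 difference of -1.08 (SE 1.76, interval -4.86 to 2.70, adjusted p = 1).

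At 12 weeks, the values by which Fstl1 was chosen were 4.06, 4.49 and 3.97 CPM in WT cells, 560, 187 and 395 CPM in CD11b-low KO cells and 1788, 1012 and 1035 CPM in CD11b-high KO cells. The order of group means was WT at 4 weeks (3.86 ± 0.219, SD, n = 3), WT at 12 weeks (4.17 ± 0.276), KO at 4 weeks (14.2 ± 9.54), CD11b-low KO at 12 weeks (380 ± 187) and CD11b-high KO at 12 weeks (1279 ± 442). The libraries of the 2 WT groups overlapped, and each later group lay wholly above the one before it. Its mean was 91.2 times the WT mean in CD11b-low KO cells and 306 times in CD11b-high KO cells.

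Thbs1 (ENSMUSG00000040152, 2:118111876-118127133, plus strand) had a different shape. Counts were 3, 3 and 2 in WT cells at 12 weeks, 4, 24 and 70 in CD11b-low KO cells and 43, 1528 and 3131 in CD11b-high KO cells, equal to 1.75, 71.6 and 97.0 CPM in the last group. The mean in CD11b-high KO cells was 56.8 ± 49.3 CPM, and 84.3 CPM without replicate 1, whose value lay below 2 CPM. Replicate 3 of the CD11b-low cells, at 2.28 CPM, stood above replicate 1 of the CD11b-high cells, so these groups overlapped. Summed counts, scaled to library size, were 588 times WT in CD11b-high KO cells (95% interval 298 to 1362, and 849 times without its replicate 1) and 9.88 times WT in CD11b-low KO cells (4.82 to 23.5), and the intervals cover counting error only. Its antisense neighbour Gm29233, which overlaps 208 exonic bases, had 0 counts in all 15 libraries.

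**Figure D1:**
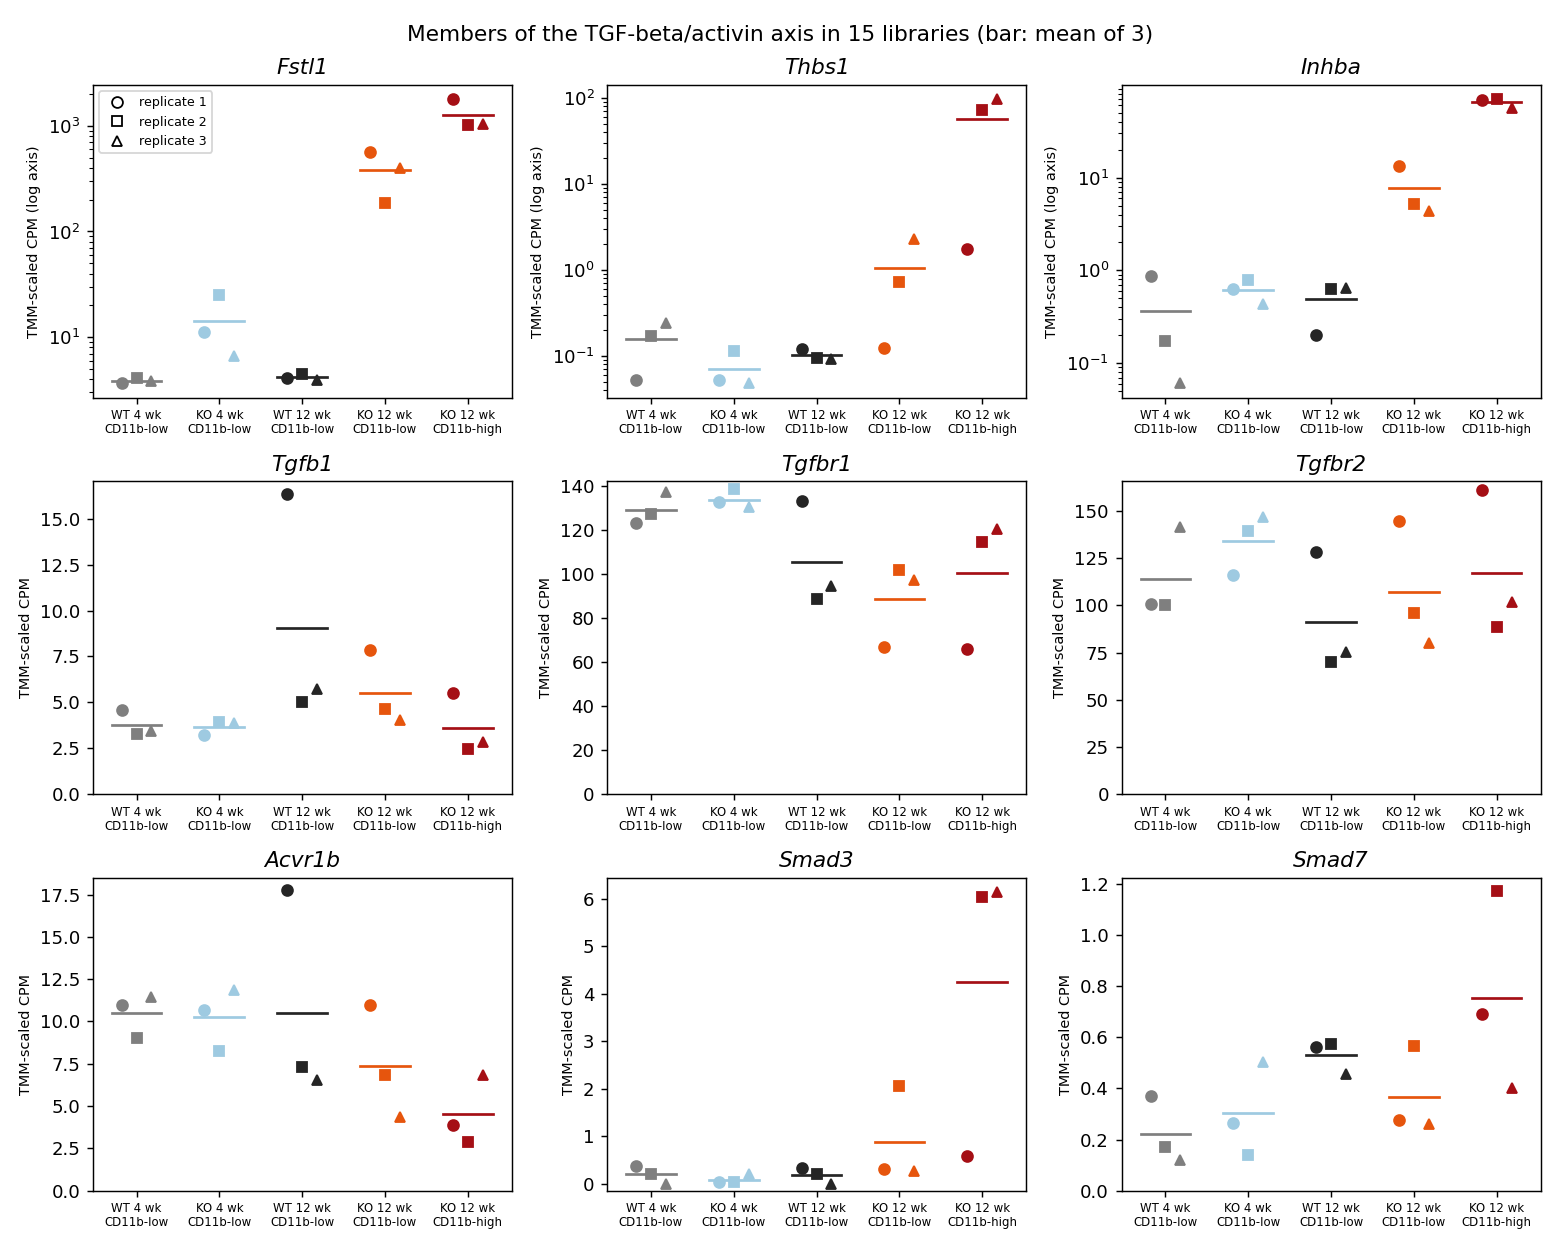
TMM-scaled CPM of the 9 genes in each library, by group, with replicates 1 to 3 as circles, squares and triangles and the group mean as a bar. Fstl1, Thbs1 and Inhba have log axes and are highest in 12-week knockout cells, while Tgfbr1 and Tgfbr2 stay between 65.9 and 161 CPM in all libraries.

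Of the ligands, Inhba (ENSMUSG00000041324, 13:16011851-16031621, plus strand) rose in KO cells with age and CD11b. Its levels were 0.872, 0.172 and 0.0604 CPM in WT and 0.631, 0.789 and 0.430 CPM in KO cells at 4 weeks. At 12 weeks they were 0.201, 0.636 and 0.639 CPM in WT cells, 13.3, 5.22 and 4.40 CPM in CD11b-low KO cells and 68.9, 70.1 and 56.5 CPM in CD11b-high KO cells. The first 3 groups overlapped each other, and the 2 KO groups at 12 weeks lay above them and apart from each other. In CD11b-low cells at 12 weeks Inhba was 15.5-fold higher in KO cells (log2 difference 3.94, SE 0.62, edgeR adjusted p = 0.00166), in a comparison where 3.1% of tested genes were called. It was 3.63 higher on the log2 scale at 12 than at 4 weeks in KO cells (SE 0.59, adjusted p = 0.00178, 6.89% of genes called) and did not differ with age in WT cells by this test (0.36, interval -1.09 to 1.82, adjusted p = 0.762, 17.2% called). The difference between these age effects was 3.27 (SE 0.90, unadjusted p = 0.00206), which did not pass after adjustment (adjusted p = 0.211 in edgeR, 0.248% called). CD11b-high KO cells were 8.51-fold above CD11b-low KO cells (log2 3.09, SE 0.54, adjusted p = 0.0149, 0.693% called) and stood above WT cells by 7.03 (SE 0.68, adjusted p = 4.8e-06, 14.8% called). The CD11b call was lost without replicate 2 or 3 of the CD11b-low cells (adjusted p = 0.14 and 0.0962) or replicate 2 of the CD11b-high cells (0.0603), with differences of 2.81 to 3.03.

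**Figure D2:**
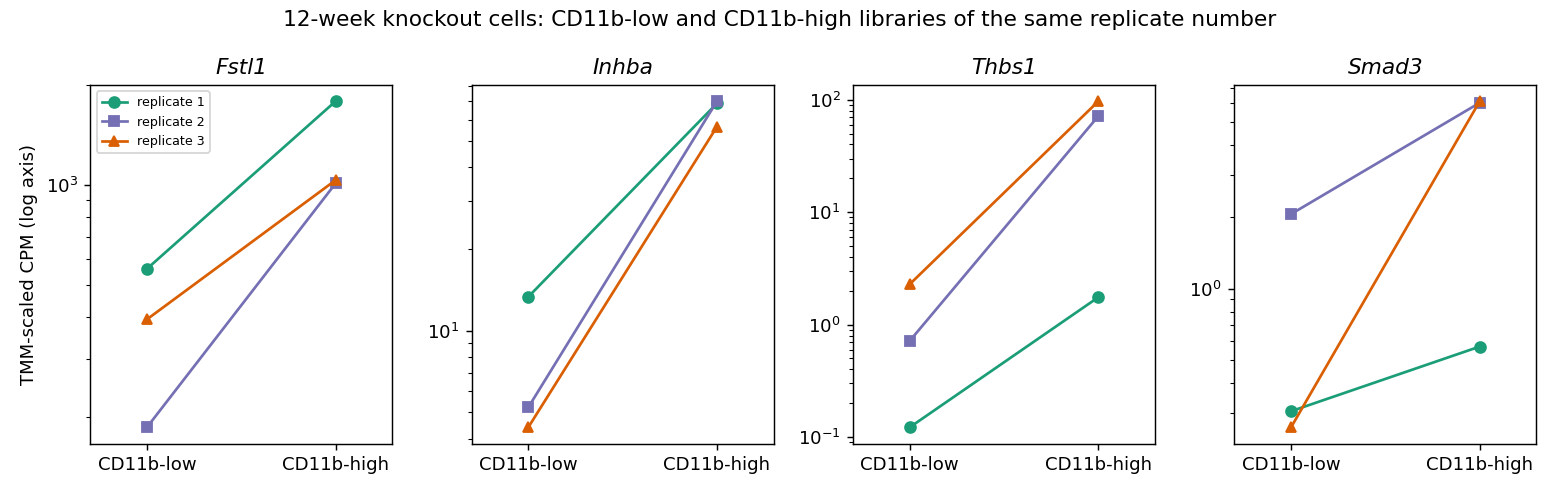
TMM-scaled CPM (log axes) of Fstl1, Inhba, Thbs1 and Smad3 in 12-week knockout CD11b-low and CD11b-high libraries, with lines joining libraries of the same replicate number. All 12 lines rise, by 2.62 to 5.42 times for Fstl1, 5.17 to 13.4 times for Inhba, 14.4 to 100 times for Thbs1 and 1.87 to 23.5 times for Smad3.

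Tgfb1 (ENSMUSG00000002603, 7:25687002-25705077, plus strand), the gene of the main TGF-beta ligand, did not follow Inhba. It was at 4.60, 3.26 and 3.42 CPM in WT and 3.21, 3.92 and 3.87 CPM in KO cells at 4 weeks. At 12 weeks it was at 16.3, 5.0 and 5.75 CPM in WT cells, 7.87, 4.62 and 4.01 CPM in CD11b-low KO cells and 5.50, 2.44 and 2.85 CPM in CD11b-high KO cells. The mean was highest in WT cells at 12 weeks (9.03 ± 6.34 CPM), where replicate 1 stood far above the others, and was 5.37 CPM without it. Tgfb1 was called lower in CD11b-high KO than in WT cells (log2 -1.33, SE 0.44, adjusted p = 0.0488), yet the libraries overlapped. The call was lost without WT replicate 1 (-0.58, adjusted p = 0.304), without CD11b-high replicate 2 or 3 (0.194 and 0.144), with RLE scaling (0.0518) and with a fit of those 2 groups alone (0.153). No other comparison of Tgfb1 passed in edgeR. Its rise with age in WT cells (1.26, SE 0.43, adjusted p = 0.0533) passed in DESeq2 (0.019), without the filter on low counts (0.0106), with RLE scaling (0.0463) and with the replicate number as a block (0.0315). In edgeR this rise also passed without WT replicate 2 or 3 at 12 weeks. It did not pass without WT replicate 1 at 12 weeks, without any WT library at 4 weeks or with only those groups fitted.

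The TGF-beta receptor genes were abundant in every group and were not called in any comparison. Tgfbr1 (ENSMUSG00000007613) had means of 129, 134, 106, 88.5 and 100 CPM in WT and KO cells at 4 weeks, WT and CD11b-low KO cells at 12 weeks and CD11b-high KO cells, and Tgfbr2 (ENSMUSG00000032440) had means of 114, 134, 91.2, 107 and 117 CPM in the same order. KO against WT at 12 weeks differed by -0.25 for Tgfbr1 (interval -0.78 to 0.27) and by 0.23 for Tgfbr2 (-0.39 to 0.85). In CD11b-high KO against WT cells the differences were -0.07 (-0.60 to 0.45) and 0.36 (-0.26 to 0.98). These intervals exclude a 2-fold change in either direction. For Tgfbr1 the libraries of KO cells at 12 weeks all lay below those at 4 weeks, with a difference of -0.60 (interval -1.12 to -0.07) that did not pass (adjusted p = 0.145). Acvr1b (ENSMUSG00000000532), the type I receptor of activin, had means of 10.5, 10.3, 10.5, 7.39 and 4.54 CPM in the same order. In CD11b-high KO against WT cells its difference of -1.21 (SE 0.41) missed the threshold in edgeR (adjusted p = 0.0584) and passed in DESeq2 (0.0344). Its WT mean at 12 weeks rested on replicate 1, at 17.7 CPM against 7.32 and 6.52 CPM, and was 6.92 CPM without it.

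Smad3 (ENSMUSG00000032402), the effector of both ligands, had few counts outside the CD11b-high cells except in replicate 2 of the CD11b-low KO cells. Its counts were 14, 6 and 0 in WT and 1, 1 and 8 in KO cells at 4 weeks, 8, 6 and 0 in WT and 10, 69 and 8 in CD11b-low KO cells at 12 weeks, and 14, 129 and 198 in CD11b-high KO cells. In CPM the last group was at 0.570, 6.04 and 6.13, so replicate 1 lay far below the others, as for Thbs1, and below CD11b-low replicate 2 (2.06). Smad3 was higher in CD11b-high KO than in WT cells at 12 weeks (log2 4.57, SE 1.18, adjusted p = 0.0156), without overlap. It lost this call without WT replicate 2 (adjusted p = 0.0596) or CD11b-high replicate 2 (0.0536). It did not pass in CD11b-high against CD11b-low KO cells (2.27, adjusted p = 0.446), KO against WT at 12 weeks (2.30, 0.269) or with age in KO cells (3.31, 0.0953). Smad7 (ENSMUSG00000025880), the inhibitory SMAD, had 4 to 25 counts in each library and was not called in any comparison. Its means were 0.221, 0.302, 0.531, 0.367 and 0.755 CPM in the order used above, and KO against WT at 12 weeks differed by -0.53 with an interval of -1.89 to 0.84.

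Libraries of the compared groups did not overlap for 1 of the 7 genes not chosen for their rise in KO against WT cells at 12 weeks (17.8% of all genes), 1 in CD11b-high against CD11b-low KO cells (13.8%) and 2 in CD11b-high KO against WT cells (26.4%). With age they did not overlap for 4 of the 7 in KO cells (38.6%) and for 2 in WT cells (34.3%). The first 2 counts were Inhba alone and the next was Inhba and Smad3. With age the genes were Inhba, Tgfb1, Tgfbr1 and Smad3 in KO cells and Tgfb1 and Smad7 in WT cells.

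**Figure D3:**
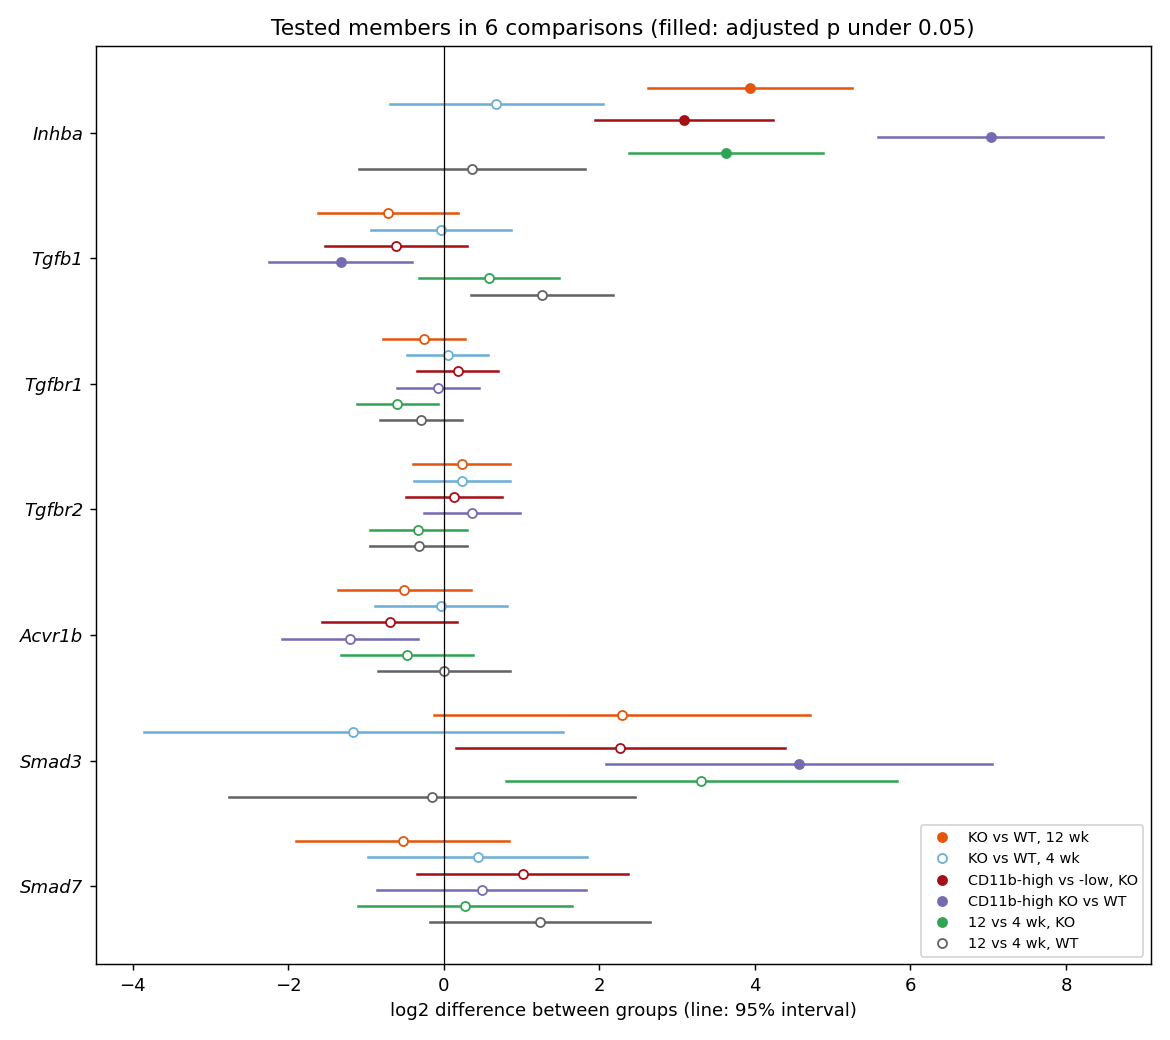
Log2 differences of the 7 genes not chosen for their rise, with 95% intervals, in 6 comparisons, with filled points where the adjusted p was under 0.05. Inhba is filled in 4 comparisons, Smad3 and Tgfb1 only in CD11b-high knockout against wild-type cells, and the receptor genes and Smad7 in none.

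Per kilobase of exon, Fstl1 was the highest of the 9 genes in CD11b-high KO cells, at 260 CPM per kb, against 15.3 for Tgfbr1, 14.3 for Tgfbr2, 10.2 for Inhba and 9.35 for Thbs1. Without replicate 1 of that group Fstl1 stood at 208 and Thbs1 at 13.9 CPM per kb. In WT cells at 12 weeks it stood at 0.849 CPM per kb, below Tgfbr1 (16.1), Tgfbr2 (11.1), Acvr1b (2.38) and Tgfb1 (1.79), which without WT replicate 1 were at 1.57 and 1.07 against 0.860 for Fstl1. The ligand Inhba stood at 0.0770 CPM per kb there, below Tgfb1, and above Tgfb1 (0.713) in CD11b-high KO cells.

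**Figure D4:**
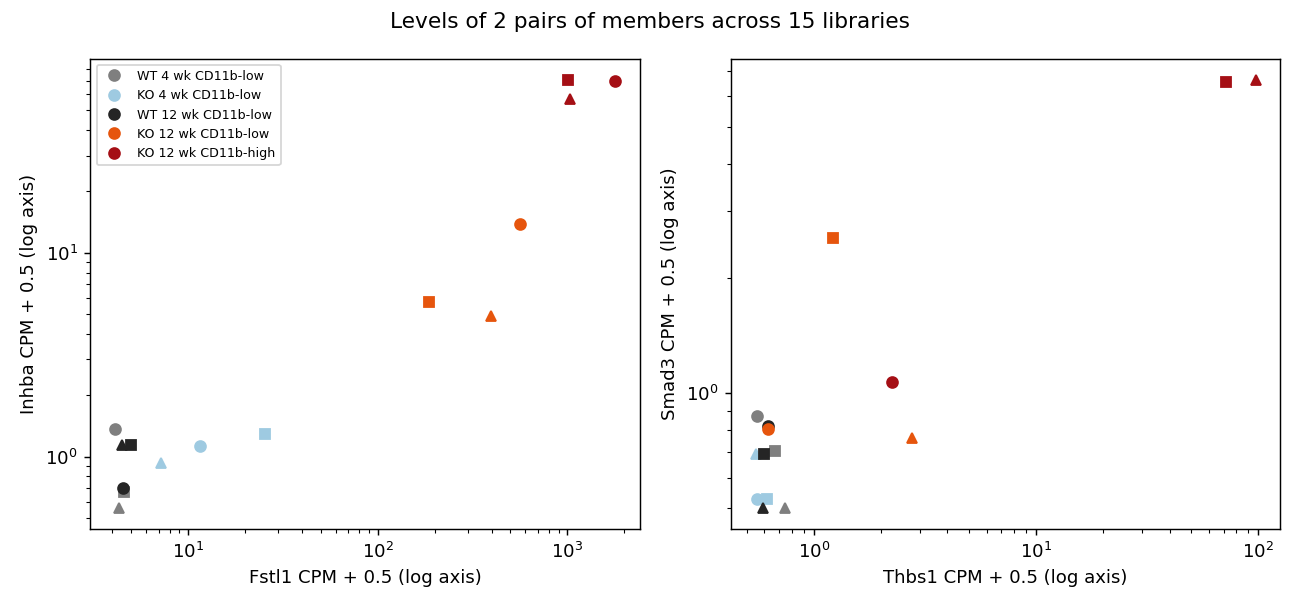
Levels (CPM + 0.5, log axes) of Inhba against Fstl1 and of Smad3 against Thbs1 in the 15 libraries, coloured by group, with circles, squares and triangles for replicates 1, 2 and 3. In the left plot the 3 CD11b-high libraries are together at the top right, and in the right plot their replicate 1 lies apart from replicates 2 and 3, near the CD11b-low cells.

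The genes most like Fstl1 and Thbs1 were ranked by Pearson correlation of log2(CPM + 0.5) over the 15 libraries, among 7103 genes with a group mean of at least 10 CPM. The libraries share the groups and pools, so these values describe a shared group pattern. For Fstl1 they were Gdpd1 (0.989), the chemokine gene Ccl9 (0.987), the chemokine receptor gene Cxcr1 (0.987), Fam20c (0.984), a kinase of the secretory pathway, and Gng8 (0.982), a G protein gamma subunit. Ccl9 had means of 46.1 CPM in WT, 419 in CD11b-low KO and 1331 CPM in CD11b-high KO cells at 12 weeks. For Thbs1 they were Plbd1 (0.985), the complement gene C1qb (0.972), the chemokine gene Ccl7 (0.959), the collagenase gene Mmp13 (0.949) and Asprv1 (0.948). In CD11b-high KO cells C1qb was at 3.87, 73.3 and 41.3 CPM and Ccl7 at 11.7, 172 and 129 CPM. These genes were ranked on the same libraries, so a pattern over libraries like that of Thbs1 was set by the ranking.

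Of 97 genes on a list of the pathway, 63 were tested, or 61 without Fstl1 and Thbs1, and the counts are over these 61. The list was written with earlier results of these data known. In CD11b-low cells at 12 weeks 2 were higher and 1 was lower in KO cells (4.92%, against 3.1% of all genes, 2.6% higher and 0.497% lower), with a median log2 difference of -0.09 against -0.04 over all genes. The count was 1 without WT replicate 1 or KO replicate 2 or 3, and 6 in DESeq2. The higher genes were the ligands Inhba and Gdf3. Gdf3 had 12, 12 and 19 counts in KO and 0 in WT cells, at least 3.81-fold higher against a floor of 3 counts per library (adjusted p = 0.0498), and its call was lost with RLE scaling and without each of the 6 libraries in turn. The lower gene was Rhob, a small GTPase gene induced by TGF-beta, at 20.5 against 41.5 CPM (log2 -1.02, SE 0.24, adjusted p = 0.0262), a call lost without WT replicate 1 or KO replicate 2 or 3 and with those 2 groups alone. None of the 10 tested receptor genes and none of the 5 tested SMAD genes passed there. Besides Tgfbr1, Tgfbr2 and the other genes described above, the most abundant receptor genes were Acvrl1 (24.2 against 43.9 CPM, log2 -0.86, adjusted p = 0.0596) and Bmpr2 (10.7 against 10.8 CPM), and the most abundant SMAD genes were Smad2 (43.8 against 39.9 CPM) and Smad1 (15.7 against 16.8 CPM). No gene of latency and activation passed, with Nrros, which anchors latent TGF-beta on myeloid cells, at 124 against 140.1 CPM and the protease gene Furin at 63.4 against 71.0 CPM. The intracellular inhibitors Skil and Tgif1 differed by 0.89 and 0.57 (adjusted p = 0.219 and 0.227), and the cofactors Usp15 and Rnf111 by 0.87 and -0.10 (0.0875 and 0.83). Of the 11 tested target genes no other than Rhob passed. Their differences ran from -1.37 for Id3 (18.8 against 48.6 CPM, adjusted p = 0.353) and -1.30 for Id1 (8.34 against 20.5 CPM, 0.355) to 0.69 for Klf10 (543 against 337 CPM, 0.271) and 0.70 for Cdkn2b (0.784 against 0.484 CPM, 0.443), genes singled out after their values were seen. Between them lay the most abundant targets, Id2 (0.46, adjusted p = 0.303) and Tgfbi (0.07, 0.928). At 4 weeks, where the choice used no value, none of the 63 passed in edgeR. In edgeR 1 was at an unadjusted p under 0.05, against 199 of all 13284 genes. In DESeq2 1 passed, against 22 over all genes, and it was Fstl1.

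CD11b-high against CD11b-low KO cells gave 2 higher genes of the 61 (3.28%, against 0.693% of all genes, 0.572% higher), Inhba and Grem1. Grem1, a secreted antagonist of bone morphogenetic proteins, had 51, 40 and 24 counts in CD11b-high KO cells and 0 in the other 12 libraries. It passed the filter on low counts, and so entered the 61, only through the group where it was high. Its calls and its part in the 3.28% are therefore a description and no support for a difference in the pathway. It was at least 16.8-fold higher than in CD11b-low KO cells (adjusted p = 0.0267) and at least 13.3-fold higher than in WT cells (adjusted p = 0.00366). Over CD11b-low KO cells Grem1 was not called in DESeq2, nor with replicate number as a block among the 12-week KO libraries alone, nor without any 1 library of these groups except CD11b-high replicate 1. The Grem1 call against WT cells was also not made in DESeq2. Over CD11b-low KO cells, the calls of Inhba and Grem1 were both lost without CD11b-low replicate 2 or 3 or CD11b-high replicate 2.

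Against WT cells at 12 weeks, CD11b-high KO cells had 8 higher and 5 lower genes of the 61 (21.3%, against 14.8% of all genes, 9.23% higher and 5.6% lower), with a median of 0.12 against -0.01. The count fell to 4 without CD11b-high replicate 2 and to 5 with those 2 groups alone. Without WT replicate 1, Ltbp2, Tgfb1, Skil, Ski, Cd109 and Rhob were not called, and Ski had stood at 76.0 CPM in that library against 29.2 and 29.1 CPM in the others of its group. The lower genes were the ligand genes Tgfb1 and Tgfb2, the receptor gene Acvrl1, the corepressor gene Ski and Rhob. Tgfb2 was at 5.15, 3.56 and 4.93 CPM in WT and 0.163, 0.843 and 0.279 CPM in CD11b-high KO cells (log2 -3.43, SE 0.61, adjusted p = 0.00107). No CD11b-high library reached the lowest WT library. Acvrl1 was at 23.4 against 43.9 CPM (-0.91, adjusted p = 0.018). Higher genes were Inhba, Smad3, Gdf3, Grem1, the latent TGF-beta binding protein gene Ltbp2 (1.48, adjusted p = 0.0421), the integrin gene Itgav (1.03, 0.0222), the TGF-beta co-receptor gene Cd109 (2.87, 0.047) and the corepressor gene Skil (1.22, 0.0471). For Cd109 and Skil the libraries overlapped. Grem1 was among the 61 only through the CD11b-high libraries, so its part in the 21.3% is a description as well.

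**Figure D5:**
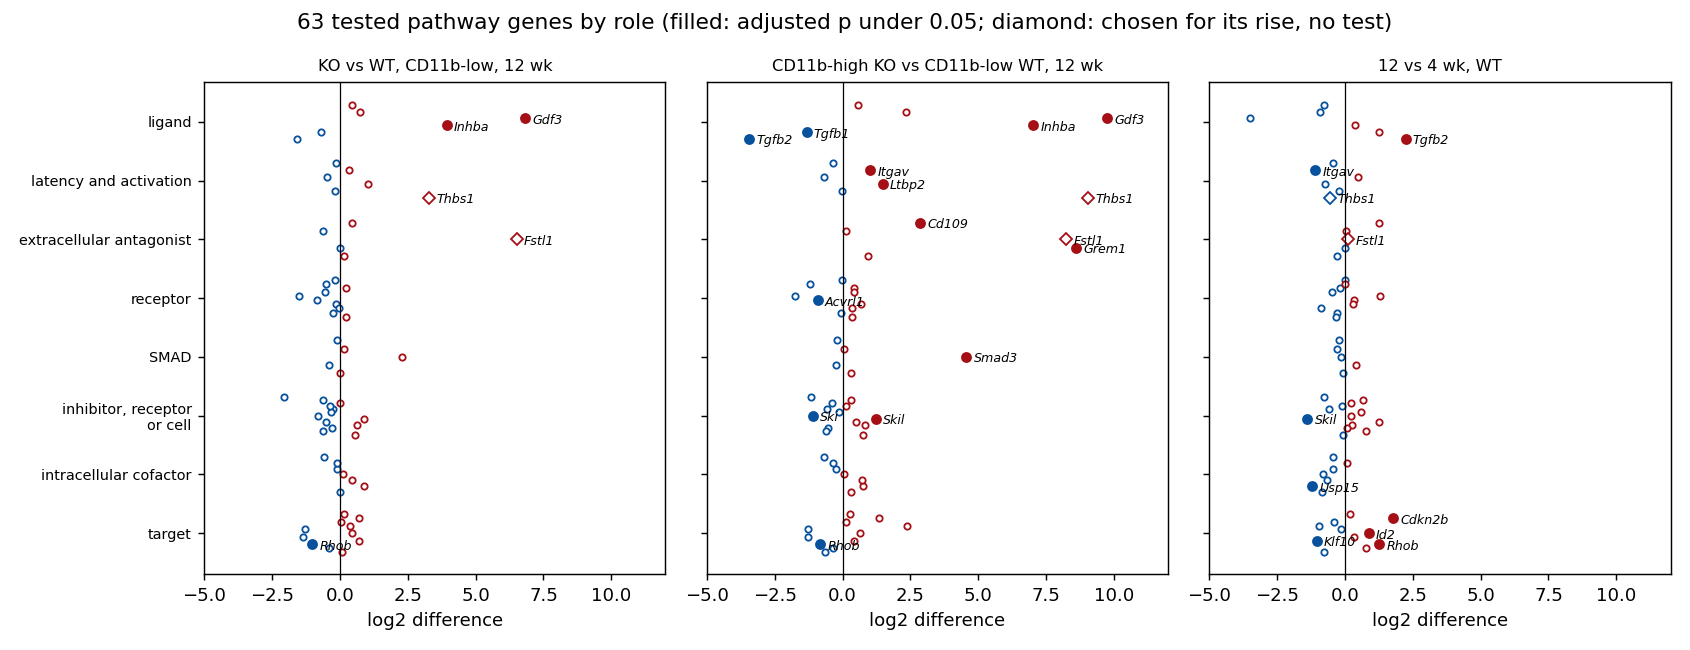
Log2 differences of the 63 tested pathway genes by role in 3 comparisons, red for higher and blue for lower, with filled and named points where the adjusted p was under 0.05 and open diamonds for Fstl1 and Thbs1. Fewer points are filled in knockout against wild-type cells at 12 weeks than in CD11b-high knockout against wild-type cells, where they lie in every role but the intracellular cofactors.

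With age, 3 of the 61 were called in KO cells, all higher (4.92%, against 6.89% of all genes, 4.81% higher), and 8 in WT cells, 4 in each direction (13.1%, against 17.2%, 8.79% higher and 8.39% lower), shares below those of all genes. In WT cells Tgfb2 rose from 0.967 to 4.55 CPM (2.24, adjusted p = 0.0122) and Rhob from 17.3 to 41.5 CPM (1.27, 0.00445), with Id2 and Cdkn2b also higher. Itgav, Skil, Usp15 and Klf10 fell, by 1.10, 1.39, 1.23 and 1.04 on the log2 scale. In KO cells Id2, an inhibitor of helix-loop-helix transcription factors, rose from 356 to 826 CPM (1.21, adjusted p = 0.00912), and Cdkn2b, a cell cycle inhibitor, rose by 2.15 (0.0239). The other called gene was Inhba. The KO count fell to 1 without replicate 3 at 4 weeks or replicate 1 at 12 weeks, and the WT count to 3 or 4 without any 1 library at 4 weeks or replicate 2 at 12 weeks. Rhob and Usp15 were called in WT cells in each of these fits. In the interaction of genotype and age, 0 of the 61 passed in edgeR (0.248% of all genes) and 0 in DESeq2 (150 over all genes). At an unadjusted p under 0.05 in edgeR there were 6 of the 61, against 1103 of all 13284 genes. Without the filter on low counts 6 passed, in a fit whose count over all genes is given below.

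Of 9 receptors and partners of Thbs1 and Fstl1, all tested, the syndecan Sdc4 was at 5.53 CPM in CD11b-low KO against 0.485 CPM in WT cells at 12 weeks. The log2 difference was 3.54 (edgeR adjusted p = 0.00604), in a comparison where 3.1% of all genes were called. It reached 10.2, 64.3 and 19.8 CPM in CD11b-high KO cells, above WT by 6.04 (adjusted p = 2.71e-05). Cd36, a scavenger receptor that binds thrombospondin 1, was at 1469 against 365 CPM in CD11b-high KO against WT cells (2.01, adjusted p = 0.0016). The integrin gene Itgb3 differed there by 4.23 (0.0457) at 1.32 against 0.0696 CPM, with 5 counts in all in WT cells. In that comparison 14.8% of all genes were called. How these calls held without single libraries is not given here. Cd47, Lrp1, Calr, Dip2a, Tlr4 and Cd14 were not called in any comparison.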

How the data were processed

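The 15 libraries were RNA sequencing of sorted alveolar macrophages. The authors deposited whole-number counts of reads per gene. STAR, Subread and featureCounts were used, per the submitters' processing notes. Their settings and the genome build are not given in the sources used here, so strand is unknown and counts of overlapping genes are uncertain. Rows repeating a gene (270, for 160 genes) were removed. In R 4.3.3, edgeR 4.0.16 fitted all 15 libraries with 1 coefficient per group after filterByExpr (minimum count 10, minimum total 15) and TMM scaling, with 10 residual degrees of freedom. Intervals are 95%. A simulated 4-fold change was recovered in 83% of changed genes for KO against WT at 12 weeks (13013 genes) and in 43% for the interaction (13016 genes), and a 2-fold change in 22% and 2%. Changes were put only into genes with a mean above 1 CPM over the libraries. Recovery for rarer genes such as Smad7 was not measured.

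Same-numbered CD11b-high and CD11b-low KO libraries deviated together (r = 0.533, 0.443 and 0.141 across genes), and the labels do not say that they share mice. At 12 weeks, same-numbered KO and WT CD11b-low libraries gave r = 0.447, 0.0658 and 0.301, and differently numbered ones -0.462 to 0.269. Same-numbered CD11b-high KO and WT libraries gave 0.182, 0.194 and 0.0122. In the other comparisons same-numbered pairs ran from -0.151 to 0.187. What libraries of the same number share was not tested. Alternatives were DESeq2 1.42.0, RLE scaling, no filter, only the groups compared, a replicate block and leaving out each library. The genes named were the 9 genes, Cybb, those called on the pathway and partner lists (at most 6 per role, or the 2 most abundant where none of a role passed) and the 5 genes each most like Fstl1 and Thbs1. The genes and lists were chosen with earlier results of these data known. Per-kb levels use GENCODE M21 (GRCm38) exon lengths.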

Additional observations from a re-analysis of the deposited data

How the results depend on the processing

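The numbers of genes called were, taking first KO against WT cells (12 weeks, then 4 weeks), next CD11b-high KO cells against CD11b-low KO and against WT cells, then age in KO, age in WT and the interaction, 412, 13, 92, 1970, 915, 2282 and 33. DESeq2 gave 873, 22, 265, 2471, 1685, 2885 and 150, no filter on low counts 1090, 73, 533, 2499, 1395, 2418 and 321, and a fit of only the groups compared 189, 4, 18, 793, 1646, 1123 and 28. A replicate block gave 66 in the interaction and otherwise stayed within 1.5 times. In CD11b-high against CD11b-low KO cells, where the block treated same-numbered libraries as pairs, which the labels do not state, it gave 97. Within the 12-week KO libraries alone it gave 105 (added after the data were seen, as were the counts without Fstl1 and Thbs1). Pathway genes called, without Fstl1 and Thbs1, were 3, 0, 2, 13, 3, 8 and 0. They became 6, 0, 1, 15, 4, 11 and 0 with DESeq2. Without the filter they were 9, 0, 9, 19, 6, 8 and 6. With only the groups compared they were 2, 0, 2, 5, 4, 3 and 0. RLE scaling moved no count by more than 1.5 times.

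Leaving out 1 library gave 230 to 426 genes called, 4 to 15, 2 to 247, 952 to 2099, 235 to 1305, 1069 to 2528 and 3 to 35 in the same order. Pathway genes without Fstl1 and Thbs1 numbered 1 to 3, 0 to 0, 0 to 2, 4 to 13, 1 to 5, 3 to 9 and 0 to 0. In CD11b-high against CD11b-low KO cells, 3 genes were called without CD11b-low replicate 2 and 2 without replicate 3, 247 without CD11b-high replicate 1, and 20 and 21 without CD11b-high replicates 2 and 3. Counts also moved by over 1.5 times without WT replicate 1 or 2 or KO replicate 2 at 12 weeks (257, 271 and 230) and without any KO library at 4 weeks (7, 4 and 7). CD11b-high KO against WT gave 952 without CD11b-high replicate 2. Age in KO gave 329, 280 and 235 without KO replicates 1 to 3 at 4 weeks and 359 and 377 without KO replicates 1 and 3 at 12 weeks. Age in WT gave 1193, 1422 and 1069 without WT replicates 1 to 3 at 4 weeks and 1502 without WT replicate 2 at 12 weeks. The interaction gave 13 without WT replicate 2 and 3 without KO replicate 3 at 4 weeks, and 21 without WT replicate 1 or 3 or KO replicate 1 at 12 weeks.

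Signs changed only for differences that were not called. Leaving out 1 library, Tgfb1 ranged from -1.06 to 0.0359 for KO against WT at 12 weeks, from -0.13 to 0.14 at 4 weeks and from -1.03 to 0.0714 in the interaction. Tgfbr2 ranged from -0.0498 to 0.56 (12 weeks), -0.17 to 0.41 (CD11b) and -0.28 to 0.32 (interaction), and Tgfbr1 from -0.23 to 0.15 (CD11b-high KO against WT). Acvr1b ranged from -0.91 to 0.0943 (12 weeks), -0.15 to 0.10 (4 weeks), -0.60 to 0.25 (age in WT) and -0.88 to 0.12 (interaction). Smad7 ranged from -0.14 to 1.04 (4 weeks) and -0.17 to 0.85 (age in KO), Inhba from -0.13 to 2.09 and Smad3 from -0.85 to 0.80 (both age in WT). With a replicate block Tgfb1 at 4 weeks became 0.0446, Acvr1b with age in WT -0.0724 and Tgfbr2 in the interaction 0.001, and with only the groups compared the last 2 became -0.0119 and 0.0041. Tgfbr2 in the interaction was 0.0177 with RLE scaling and 0.0205 with DESeq2. The cause was not tested. Low counts of Thbs1, Smad3 and Smad7 limit what these libraries can show for them.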
